A study of Mus musculus with 6 samples.

Results

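The genes of 4 NFAT transcription factors (Nfatc1, Nfatc2, Nfatc3 and Nfat5), of 3 subunits of the phosphatase calcineurin (Ppp3ca, Ppp3cb and Ppp3r1) and of 3 regulators of the pathway (Rcan1, Rcan2 and Dyrk1a) were followed in mouse osteoclasts grown with and without verapamil. They were picked by symbol, and all 10 were found among the 16775 genes of the count table. All 10 passed the filter on low counts. The cells were macrophages from wild-type mouse bone marrow, kept in medium with 10% serum and 30 ng/ml M-CSF, to which 50 ng/ml RANKL was added so that they became osteoclasts. Both groups shared this treatment, and one of them also received verapamil, at a dose and for a time that the labels do not state. The titles give day 5, while the protocol speaks of medium changes up to day 7. There were 2 control libraries (replicates 1 and 3) and 3 verapamil libraries (replicates 1, 2 and 3); control replicate 2 was not analysed here.

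NFAT factors sit phosphorylated in the cytoplasm of resting cells. When calcium rises, calmodulin activates calcineurin, which is made of a catalytic A subunit and a calcium-binding B subunit, and calcineurin removes phosphates from the calcium-regulated NFAT factors so that they enter the nucleus. In osteoclast precursors RANKL evokes calcium oscillations, and NFATc1 induced in this way is the factor on which osteoclast formation depends. The Rcan proteins bind and restrain calcineurin, and Dyrk1a is a kinase that primes NFAT for its return to the cytoplasm. Nfat5 differs from the others in that it responds to osmotic stress and not to calcineurin. Verapamil blocks L-type voltage-gated calcium channels, one route of calcium entry.

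On GRCm38.p6, Nfatc2 spans chr2:168476410-168601657, Ppp3cb chr14:20499364-20546573, Rcan1 chr16:92391951-92466169 and Rcan2 chr17:43801352-44039516. Start regions are shown for Rcan1, whose inner start site is a textbook target of calcineurin and NFAT, and for the 3 genes that passed the test below. Each sequence holds the 250 bases before an annotated start, read 5′ to 3′ along the gene, from RefSeq on the same build. Capitals mark only the NFAT core GGAAA or its reverse complement TTTCC.
Rcan1, outer start (chr16:92466170-92466419, minus strand): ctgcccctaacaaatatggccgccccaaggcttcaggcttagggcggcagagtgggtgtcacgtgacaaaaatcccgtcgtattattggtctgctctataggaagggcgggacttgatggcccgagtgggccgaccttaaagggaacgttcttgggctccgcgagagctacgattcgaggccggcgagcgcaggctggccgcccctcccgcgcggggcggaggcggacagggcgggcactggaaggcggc
Rcan1, inner start (chr16:92400079-92400328, minus strand): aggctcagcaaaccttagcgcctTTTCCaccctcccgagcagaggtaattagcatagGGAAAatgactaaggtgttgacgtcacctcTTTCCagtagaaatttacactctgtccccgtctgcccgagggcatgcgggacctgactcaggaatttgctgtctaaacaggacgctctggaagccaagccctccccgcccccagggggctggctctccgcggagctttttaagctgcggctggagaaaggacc
Nfatc2, outer start (chr2:168601658-168601907, minus strand): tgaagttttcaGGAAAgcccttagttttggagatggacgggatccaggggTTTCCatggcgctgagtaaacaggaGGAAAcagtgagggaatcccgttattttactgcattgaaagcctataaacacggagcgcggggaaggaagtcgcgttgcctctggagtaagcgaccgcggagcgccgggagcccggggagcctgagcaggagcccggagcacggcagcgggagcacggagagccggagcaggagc
Rcan2, first start (chr17:43801102-43801351, plus strand): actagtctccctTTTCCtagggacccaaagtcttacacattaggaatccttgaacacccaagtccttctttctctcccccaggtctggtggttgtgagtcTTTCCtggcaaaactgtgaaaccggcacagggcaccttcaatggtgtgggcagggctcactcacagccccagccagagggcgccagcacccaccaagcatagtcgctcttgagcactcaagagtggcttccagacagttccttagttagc
Ppp3cb (chr14:20546574-20546823, minus strand): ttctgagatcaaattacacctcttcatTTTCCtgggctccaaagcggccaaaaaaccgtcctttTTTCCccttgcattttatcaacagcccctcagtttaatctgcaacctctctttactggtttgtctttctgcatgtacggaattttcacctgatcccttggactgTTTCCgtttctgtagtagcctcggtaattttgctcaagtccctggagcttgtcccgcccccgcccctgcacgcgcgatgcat

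The inner Rcan1 region held 3 such cores, beginning 227, 193 and 163 bases before the start, and 1 match to the AP-1 motif TGANTCA, beginning 110 bases before it. The outer Rcan1 region held 0 of either. Nfatc2 and Ppp3cb each had 3 cores in the region shown, and Rcan2 had 2. Ppp3cb had only 1 region, but for Nfatc2 and Rcan2 the region shown was that with the most cores. The other Nfatc2 region held 1 core, and the other Rcan2 regions held 0. The counts shown for Nfatc2 and Rcan2 are therefore picked as the highest and cannot be read against the shares of all regions below. Both strands were searched, and no core overlapped the TGANTCA match. Among 32851 annotated regions of this length, 55.6% held at least 1 core, 6.39% at least 3, and 6.75% a TGANTCA match. At least 3 cores together with a TGANTCA match, as at the inner Rcan1 start, were found in 0.457%. These minimums equal the counts of the inner Rcan1 region itself, so this share cannot be read as a test of that region. Regions of 8 of the 10 genes were searched, 15 in all, of which 9 held a core and 2 a TGANTCA match (the inner Rcan1 start and the third Rcan2 start). Regions of Nfatc1 were not examined here, and Ppp3ca had no entry. These matches describe letters and not bound sites.

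Libraries held 20202340 to 21494523 estimated reads. The controls differed from each other more than the treated libraries did, with a variance 31 times that of counting alone against 2.04 to 4.2 times, and the difference followed exon length, as detailed with the lengths below. All 8 osteoclast markers reached at least 1 CPM (7 lower and 1 higher with verapamil; summed, 6866 to 7481 CPM in the controls and 3119 to 3277 CPM with verapamil). By the same test, described below, 15.4% of all tested genes were lower and 9.99% higher. Markers of other cells the culture could hold moved too. The summed level of 10 stromal and osteoblast markers was 1251 to 1437 CPM in the controls and 504 to 529 CPM with verapamil (8 lower, 0 higher). For 9 macrophage markers it was 5532 to 5630 CPM against 4241 to 4290 CPM (6 lower, 1 higher). For 8 dendritic cell markers it was 164 to 197 against 134 to 140 CPM (5 of 6 tested lower, 1 higher), with Flt3 and Ccr7 at no more than 0.0516 CPM. These sums hid larger changes of single markers. Itgax, the dendritic marker called higher, had a mean of 57.6 CPM in the controls and 122 CPM with verapamil. Cd74 and Mgl2, called lower, went from 61.2 to 5.94 CPM and from 33.2 to 4.21 CPM. Among the macrophage markers C1qa, called lower, went from 944 to 153 CPM, and Mertk, the 1 called higher, from 204 to 322 CPM. The T and B cell, neutrophil, megakaryocyte and erythroid markers found in the table were at or below 4.94 CPM in every library, except Cd4 at 208 to 425 CPM. In bulk RNA, fewer cells of a type and less RNA per cell cannot be told apart, and the part of these cells in the results below was not tested.

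Of these 10 genes 3 differed between the groups by the test. Rcan2, which encodes a calcineurin inhibitor, and Nfatc2 were lower with verapamil, and Ppp3cb, a catalytic subunit of calcineurin, was higher. Nfatc1, Nfatc3, Nfat5, Ppp3ca, Ppp3r1, Rcan1 and Dyrk1a did not pass edgeR's quasi-likelihood test (Benjamini-Hochberg adjusted p under 0.05 over all 12619 tested genes). With 1 of 10 higher and 2 of 10 lower, 30% of the genes were called, against 25.4% of all tested genes (9.99% higher and 15.4% lower). The share called among the 10 is thus near that of the whole table. Under upper quartile factors 28.2% of all calls were to the higher side, against 39.4% here. The median log2 fold change was 0.04 over the 10 genes and -0.01 over all tested genes. The values of the 2 groups did not overlap for 6 of the 10 (Nfatc2, Nfatc3, Ppp3cb, Ppp3r1, Rcan2 and Dyrk1a), as for 56.7% of all tested genes. The background moved with the setting. Leaving out control replicate 1 or 3 put it at 35.3% or 60.9%. Leaving out verapamil replicate 1, 2 or 3 put it at 11.8%, 12.4% or 11.6%. RLE factors gave 25.9%, DESeq2 27.9%, no filter on low counts 18% and a stricter filter 25.4%. Upper quartile factors gave 25.7% (7.25% higher), and a block for the replicate number 26.3% (10.6% higher).

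**Figure D1:**
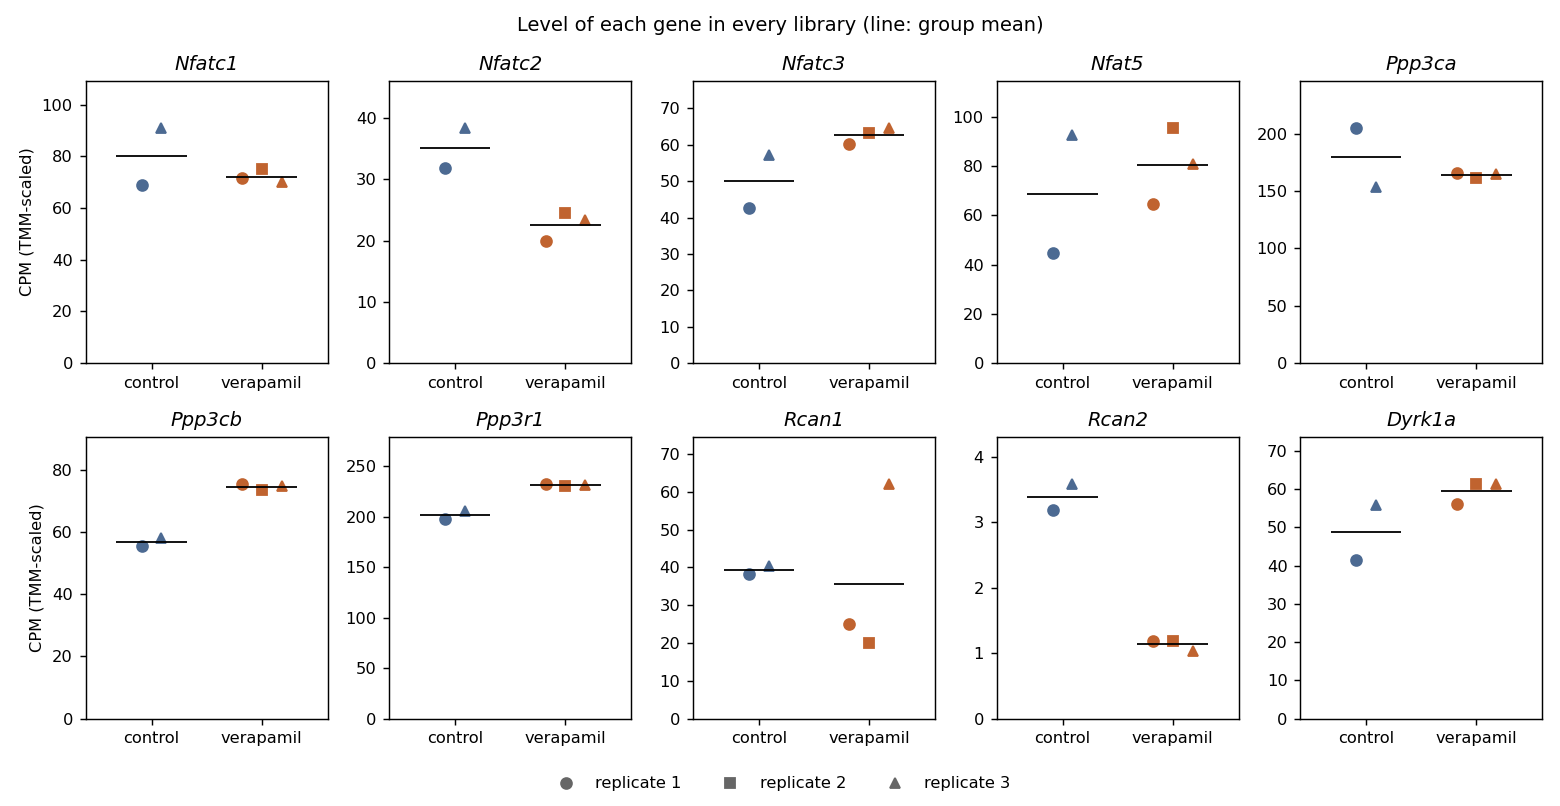
Level of each of the 10 genes in CPM with TMM factors (vertical axis, from 0, a separate scale per gene) in 2 control and 3 verapamil libraries; each point is a library, its shape the replicate number, blue for control and orange for verapamil, and the line is the group mean. Rcan2 and Nfatc2 sit lower and Ppp3cb higher in all 3 verapamil libraries, and Rcan1 is at 62.2 CPM in verapamil replicate 3 against 25 and 19.9 CPM in the other 2.

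Nfatc1, the calcium-regulated factor that drives osteoclast formation, was at 69 and 91 CPM in control replicates 1 and 3 and at 71.5, 75 and 70.1 CPM in verapamil replicates 1, 2 and 3. (CPM are counts scaled to library size with TMM factors.) All treated values lay between the controls, and the log2 fold change was -0.15 (SE 0.138, edgeR adjusted p = 0.449). The sign rested on which control was used. Set against control replicate 3 alone Nfatc1 was lower by a log2 of -0.33 (adjusted p = 0.0112), and against control replicate 1 alone the estimate was 0.07 (adjusted p = 0.492). A fit with the trend on exon length removed gave -0.32 and a call (adjusted p = 0.0134). With a single control left, such p-values assume that it varies like the treated libraries.

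Nfatc2 encodes a second calcium-regulated NFAT factor, best known from T cells. Its level was 31.8 and 38.4 CPM in the controls and 20, 24.5 and 23.4 CPM with verapamil. The highest treated value was below the lowest control, and the means were 35.1 ± 4.67 CPM (SD, n = 2) and 22.6 ± 2.32 CPM (SD, n = 3). This was a 1.55-fold lower level (log2 -0.63, SE 0.142, edgeR adjusted p = 0.0226). The direction held when either control was left out (-0.76 and -0.49, both called). The call was lost without any one of verapamil replicates 1, 2 and 3 (adjusted p = 0.0926, 0.0654 and 0.0899), where the estimates were -0.55, -0.70 and -0.66 and fewer genes were called in the whole table.

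Nfatc3, the third calcium-regulated factor here, had 42.7 and 57.3 CPM in the controls and 60.1, 63.2 and 64.6 CPM with verapamil. The treated values were all above the controls, yet the 2 controls were further apart than the treated mean was from control replicate 3. The log2 fold change of 0.32 (SE 0.146) did not pass (edgeR adjusted p = 0.152). It was 0.13 without control replicate 1 and 0.55, with an adjusted p of 0.000744, without control replicate 3.

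Nfat5, the osmotic stress factor, was the most variable of the NFAT genes, at 44.9 and 92.7 CPM in the controls and 64.7, 95.5 and 80.8 CPM with verapamil. The groups overlapped, and the estimate of 0.22 had a standard error of 0.317 (edgeR adjusted p = 0.623). It was -0.20 without control replicate 1 (adjusted p = 0.394) and 0.84 without control replicate 3 (adjusted p = 0.00389). No direction can be given for Nfat5 from these libraries.

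Calcineurin's catalytic subunits differed between genes. Ppp3ca, which encodes the alpha form, had 205 and 154 CPM in the controls and 166, 161 and 165 CPM with verapamil. The treated libraries agreed closely and lay between the controls (log2 -0.13, SE 0.138, edgeR adjusted p = 0.504). Against control replicate 3 alone it stood at 0.10 (adjusted p = 0.312), and against control replicate 1 alone at -0.32 (adjusted p = 0.0031).

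Ppp3cb, which encodes the beta form, had 55.3 and 58 CPM in the controls and 75.5, 73.4 and 74.7 CPM with verapamil. Neither group varied much, and every treated library was above both controls, with means of 56.6 ± 1.9 CPM (SD, n = 2) and 74.6 ± 1.06 CPM (SD, n = 3). The level was 1.32-fold higher (log2 0.40, SE 0.0927, edgeR adjusted p = 0.0259). It stayed between 0.37 and 0.43 when any one library was left out, but leaving out verapamil replicate 1, 2 or 3 ended the call (adjusted p = 0.125, 0.127 and 0.141), and so did a block for the replicate number (0.41, adjusted p = 0.12). Under upper quartile factors, which moved the median of all genes to -0.13, it was 0.28 and not called (adjusted p = 0.0703).

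Ppp3r1, the gene of the calcium-binding B subunit, had 198 and 206 CPM in the controls and 233, 231 and 232 CPM with verapamil. The groups did not overlap, but the difference was small (log2 0.20, SE 0.0868, edgeR adjusted p = 0.138). Leaving out control replicate 3 gave a call (0.23, adjusted p = 0.0168). Taking out the length trend did so too (0.23, adjusted p = 0.0322). Wdr92 overlaps 14.3% of its exon bases, and the sources used here do not say whether counting used strand.

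Rcan2, a calcineurin inhibitor gene, was the member with the largest change. It had 3.19 and 3.59 CPM in the controls (71 and 84 reads) and 1.18, 1.19 and 1.04 CPM with verapamil (24, 23 and 21 reads). Treated libraries agreed within 1.15-fold and were all below the controls. The means were 3.39 ± 0.279 CPM (SD, n = 2) and 1.13 ± 0.0861 CPM (SD, n = 3), a 2.98-fold lower level (log2 -1.57, SE 0.203, edgeR adjusted p = 0.00342). The call held in all 12 alternative fits, with estimates from -1.49 to -1.69. Rcan2 was the only one of the 10 genes below 5 CPM, and the summed stromal markers given above were also lower; their part in the difference was not tested.

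Dyrk1a, the priming kinase, had 41.4 and 55.9 CPM in the controls and 56, 61.4 and 61.2 CPM with verapamil. The groups did not overlap, though control replicate 3 almost met verapamil replicate 1, and the log2 fold change of 0.29 (SE 0.151) did not pass (edgeR adjusted p = 0.198). It was 0.09 without control replicate 1 and 0.52 (adjusted p = 0.00141) without control replicate 3, much as for Nfatc3.

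**Figure D2:**
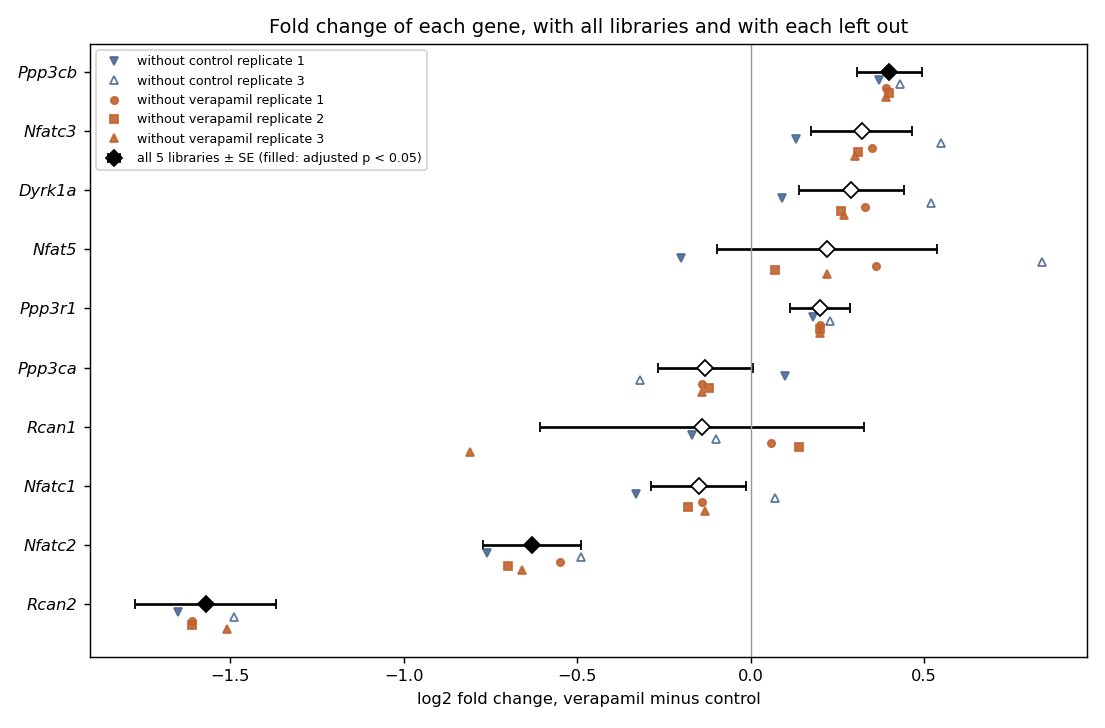
Log2 fold change with verapamil (horizontal axis) for the 10 genes; black diamonds are the fit to all 5 libraries with the standard error, filled where the adjusted p was under 0.05, and coloured symbols below each are fits with 1 library left out. Ppp3cb, Nfatc2 and Rcan2 stay on their side of 0 in all of these fits. So do Nfatc3, Ppp3r1 and Dyrk1a, whose diamonds are open, whereas Nfatc1, Nfat5, Ppp3ca and Rcan1 cross it.

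Rcan1 encodes the calcineurin inhibitor whose inner start region is printed above. Its level was 38.3 and 40.3 CPM in the controls and 25, 19.9 and 62.2 CPM in verapamil replicates 1, 2 and 3. The controls were alike, 2 treated libraries were below both, and the third was above both. The log2 fold change was therefore -0.14 with a standard error of 0.467 (edgeR adjusted p = 0.843). Without verapamil replicate 3 it was -0.81 and called (adjusted p = 0.0467, among 11.6% of all genes called). Without replicate 1 or 2 it was 0.06 or 0.14, not called. Counts cannot separate the transcripts from the inner and outer start, so which of them differed is not known.

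The spread of Rcan1 among treated libraries was wide beside that of most genes with a mean of at least 10 CPM, which were not matched to its level. Its highest value was 3.12 times its lowest, and 7 of 8357 tested genes with a mean of at least 10 CPM, Rcan1 among them, had a ratio that large (median ratio 1.1). In verapamil replicate 3, 4 of these genes were at least 2-fold above both other treated libraries, against 1 gene in replicate 1 and 0 in replicate 2. In the other direction, 3, 2 and 1 genes were at least 2-fold below both others in replicates 1, 2 and 3. The 4 higher genes of replicate 3 were Rcan1, Egr3, Rpl37rt and Ugt1a8. Egr3, an immediate early zinc finger factor, was at 1.72 and 2.94 CPM in replicates 1 and 2 and at 36.9 CPM in replicate 3, with 7.06 and 7.9 CPM in the controls. Rpl37rt and Ugt1a8 are related in sequence to other genes and also differed widely between the controls (42.8 against 4.91 CPM, and 62.3 against 0 CPM). In the treated libraries Ugt1a8 was near 0, at 0, 0 and 0.542 CPM. The minimum of 10 CPM was set on the mean of all libraries. Egr3 reached it only through verapamil replicate 3 itself, and Ugt1a8 only through control replicate 1. The count of 4 genes is therefore in part fixed by the values it judges.

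With the minimum lowered to 1 CPM, 13 of 11549 genes met the 2-fold condition in verapamil replicate 3, and 12 and 8 in replicates 1 and 2. By this count replicate 3 was close to replicate 1. Among the 13 were other immediate early genes. Nr4a1, an orphan nuclear receptor, had 0.738, 0.826 and 4.09 CPM in replicates 1 to 3, below both controls (7.87 and 9.61 CPM). Fosb, an AP-1 subunit, had 0.295, 0.568 and 2.96 CPM, with 1.62 and 1.58 CPM in the controls. Not all genes of this class followed, since Egr1 had 10.6, 9.81 and 10.7 CPM and Fos 5.95, 5.63 and 8.08 CPM in the same 3 libraries. Egr2 had 39.7, 42.2 and 62.1 CPM, highest in replicate 3 but short of the 2-fold condition. Nr4a3, at a low level, had 0, 0.258 and 2.12 CPM. These genes, Egr3 included, were chosen after their values were seen, and the origin of the difference between treated libraries was not tested.

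Exon length moved with the difference between the controls. Across 12357 tested genes with a length, the log2 ratio of control replicate 1 to replicate 3 had a Spearman correlation of -0.66 with exon length, over genes of the same 2 libraries. Its median went from 0.73 for the 480 genes of up to 1000 bases to -0.60 for the 877 genes above 8000 bases. The NFAT genes and Dyrk1a are long (6167 bases for Nfatc3, 6279 for Dyrk1a, 7433 for Nfatc1, 8367 for Nfatc2 and 13382 for Nfat5), and all 5 were lower in control replicate 1, by a log2 of -0.43, -0.43, -0.40, -0.27 and -1.05. The median was -0.48 for all genes of 6000 to 8000 bases. Ppp3ca, of 4788 bases, went against this, at 0.42 where the median of its length class was -0.29.

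The change with verapamil was taken against both controls together. In every length class its median had the opposite sign to that of the control ratio above. The part of control replicate 1 in this was not tested. The median log2 fold change with verapamil rose with length, from -0.35 in the shortest class to 0.26 in the longest. In the class of 6000 to 8000 bases it was 0.21, with Nfatc3 (0.32) and Dyrk1a (0.29) a little above and Nfatc1 (-0.15) below. Nfatc2 (-0.63) was below the 0.26 of its class, and Ppp3cb (0.40) above the 0.11 of genes of 4000 to 6000 bases. With this trend removed from every library, 2 of the 10 genes were higher (Ppp3cb and Ppp3r1) and 3 lower (Nfatc1, Nfatc2 and Rcan2), where 37.6% of all genes were called (17.8% higher and 19.8% lower). Nfatc2, Rcan2 and Ppp3cb kept their calls in that fit, and Nfatc1 and Ppp3r1 gained one.

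**Figure D3:**
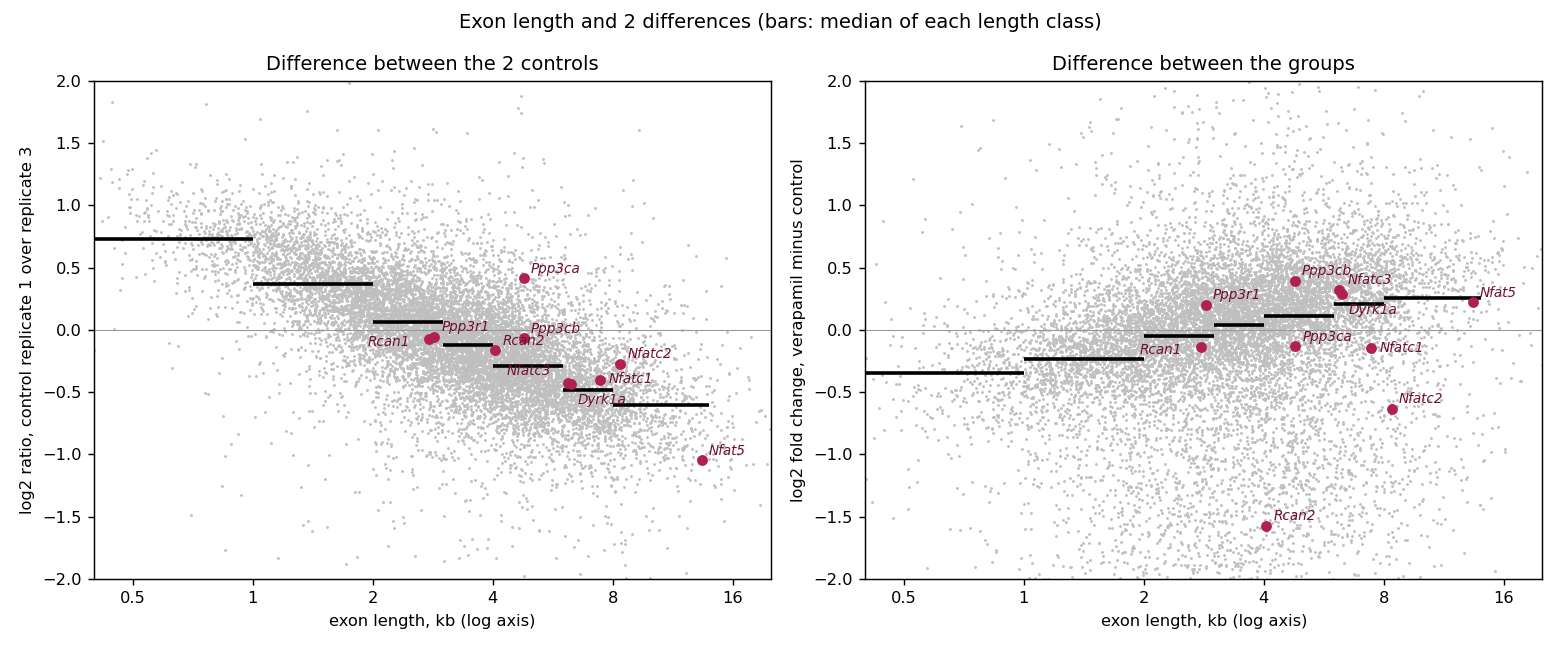
Exon length (horizontal axis, log scale, kb) against the log2 ratio of the 2 controls (left) and the log2 fold change with verapamil (right); grey points are tested genes inside the axes, which stop at -2 and 2, black bars the median of each length class, and red points the 10 genes. The bars fall from 0.73 to -0.60 on the left and climb from -0.35 to 0.26 on the right.

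Levels of different genes were compared per kilobase of exon (CPM per kb), with the exons of protein-coding transcripts in the basic annotation as the length. In the controls the order was Ppp3r1 (70.6), Ppp3ca (37.5), Rcan1 (14.2), Ppp3cb (11.8), Nfatc1 (10.8), Nfatc3 (8.11), Dyrk1a (7.75), Nfat5 (5.14), Nfatc2 (4.19) and Rcan2 (0.835). The ranges of the 2 controls overlapped between Ppp3cb and Nfatc1, between Nfatc1 and Nfatc3, between Nfatc3 and Dyrk1a, between Dyrk1a and Nfat5 and between Nfat5 and Nfatc2. Within each control Nfatc1 was above Nfatc3, Nfatc3 above Dyrk1a and Dyrk1a above Nfat5. Ppp3cb and Nfatc1 changed places between the controls (11.6 and 9.28, then 12.1 and 12.2). Nfat5 and Nfatc2 did so too (3.36 and 3.8, then 6.93 and 4.59), so the order within these pairs is not settled. With verapamil Ppp3cb (15.6) stood before Rcan1 (12.9, from 7.18 to 22.4), and Nfatc3 (10.2) before Nfatc1 (9.71), whose ranges of 9.74 to 10.5 and 9.44 to 10.1 overlapped. Within each treated library Nfatc3 was above Nfatc1, by little in replicates 1 and 2 (9.74 against 9.61, 10.2 against 10.1 and 10.5 against 9.44). The order depended on the length used. Over all annotated exons, a length chosen after the data were seen, Nfatc3 has 11726 bases instead of 6167 and Ppp3cb 8809 instead of 4784. The control order was then Ppp3r1 (62.6), Ppp3ca (18), Rcan1 (12.7), Nfatc1 (10.7), Ppp3cb (6.43), Dyrk1a (5.9), Nfatc3 (4.27), Nfat5 (3.74), Nfatc2 (3.32) and Rcan2 (0.775), and the order with verapamil was the same.

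Within the NFAT family the share of each gene was followed. Over all 5 factors, with Nfatc4 added, the sum was 29.4 ± 6.79 CPM per kb (SD, n = 2) in controls and 28.8 ± 1.88 (SD, n = 3) with verapamil. Nfatc3 held 28.2% and 27.2% of it in the controls and 36.2%, 33.4% and 36.1% with verapamil. Nfatc2 held 15.5% and 13.4% against 8.9%, 9.55% and 9.63%, and Nfatc4 4.97% and 3.28% against 1.17%, 0.826% and 0.875%. Nfatc1 had 37.8% and 35.8% against 35.8%, 32.9% and 32.5%. Which gene held the most depended on the length: per all annotated exons Nfatc1 was first in every library (43.3% to 48.1%), and Nfatc3 had 19% and 18.4% in the controls and 25.2%, 23.3% and 25.4% with verapamil. The shares of Nfatc3, Nfatc2 and Nfatc4 did not overlap between the groups with either length. Shares are tied to each other, and 5 libraries split 2 against 3 have 10 arrangements, so an exact permutation test could not go below p = 0.1.

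Among the catalytic subunits of calcineurin, with Ppp3cc added, the sum was 55.7 ± 6.18 CPM per kb (SD, n = 2) and 57 ± 0.86 (SD, n = 3). Ppp3cb made up 19.2% and 23.6% in the controls and 27.6%, 27.4% and 27% with verapamil. Ppp3ca remained the main form, at 71.4% and 62.5% against 60.7%, 59.8% and 59.7%. Neither share overlapped between the groups with either length, and for both of them control replicate 3 was the control nearer to the treated libraries.

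**Figure D4:**
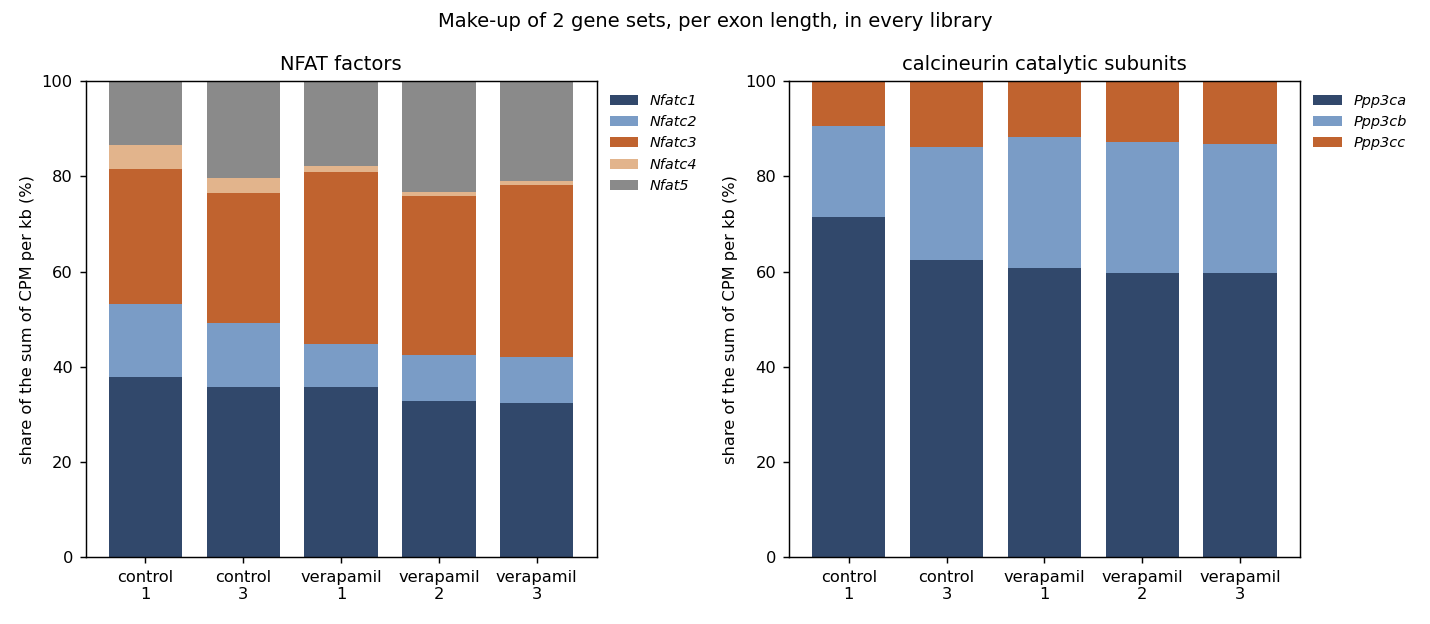
Share of each gene (vertical axis, %) in the summed CPM per kb (protein-coding exon length) of the 5 NFAT factors (left) and the 3 catalytic subunits of calcineurin (right), 1 bar per library. The Nfatc3 share is 27.2% and 28.2% in the controls and 33.4% to 36.2% with verapamil, and the Ppp3cb share 19.2% and 23.6% against 27% to 27.6%.

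The rest of the pathway was described with 7 lists holding 97 tested genes. Their calls are read against the 9.99% higher and 15.4% lower of all tested genes. Among 13 other NFAT and calcineurin genes 0 were higher and 1 lower (median -0.03). That gene was Nfatc4, the remaining calcium-regulated factor, which fell from 4.78 ± 0.298 CPM (n = 2) to 1.12 ± 0.141 CPM (n = 3), from 219 and 68 reads in all (log2 -2.09, SE 0.199, edgeR adjusted p = 0.0013). Calmodulin genes and Ppp3cc were not called. Ppia, the cyclophilin that cyclosporin A uses to inhibit calcineurin, had 1067 ± 327 and 1078 ± 69.4 CPM (log2 0.01, adjusted p = 0.961), and many pseudogenes of similar sequence make its count uncertain. Its sign turned with the control used, from 0.37 with replicate 1 left out to -0.27 with replicate 3 left out (adjusted p = 0.00953 and 0.0234), and -0.12 under upper quartile factors.

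Kinases that rephosphorylate NFAT and carriers across the nuclear envelope showed 1 of 15 higher and 0 lower (median 0.03). The one called was Csnk1e, a casein kinase, from 36.6 ± 5.55 to 53.8 ± 4.01 CPM (log2 0.56, SE 0.137, edgeR adjusted p = 0.0303), and its call was lost without any verapamil library (adjusted p = 0.0884 to 0.133) and with that block (adjusted p = 0.0635). The importin Kpnb1 had 230 ± 27.8 and 202 ± 6.74 CPM (log2 -0.18, adjusted p = 0.252). It was called lower against control replicate 3 alone (-0.30, adjusted p = 0.0111) and with length taken out (-0.32, adjusted p = 0.00541), but was -0.05 against control replicate 1 alone.

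Upstream of calcium, 2 of 19 genes were higher and 4 lower (median 0.07), or 31.6% called, near the 25.4% of all tested genes. The kinase Tec and the phospholipase Plcg2, which act in series to release calcium from stores, rose from 59 ± 2.87 to 101 ± 3.21 CPM and from 72.3 ± 7.93 to 112 ± 3.27 CPM (log2 0.78 and 0.64, edgeR adjusted p = 0.00315 and 0.00928). Plcg2 missed the threshold when verapamil replicate 2 or 3 was left out (adjusted p = 0.0556 and 0.062). Oscar, an immunoglobulin-like receptor that costimulates RANK signalling, fell from 45.9 ± 5.02 to 15.9 ± 1.2 CPM (log2 -1.53, adjusted p = 0.000865). Lcp2, the adaptor SLP-76, fell by 0.53 on the log2 scale (adjusted p = 0.0105), a call lost without any verapamil library. Itpr3 and Tnfrsf11a were also called lower (log2 -0.98 and -0.44, edgeR adjusted p = 0.0145 and 0.043). Tyrobp, the adaptor DAP12, had 828 ± 201 and 881 ± 74.7 CPM (log2 0.09, adjusted p = 0.712), with estimates of 0.37 (called, adjusted p = 0.0181) and -0.14 without control replicates 1 and 3 and -0.04 under upper quartile factors. With the length trend out, Tyrobp was 0.44 and called (adjusted p = 0.0282).

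Among the calmodulin-dependent kinases and their Creb and Mef2 partners, 1 of 16 was higher and 2 lower (median 0.04). Camkk2 rose from 24.8 ± 5.39 to 45.5 ± 1.44 CPM (log2 0.88, edgeR adjusted p = 0.0103), but was not called with verapamil replicate 2 or 3 left out (adjusted p = 0.0509 and 0.0518). Its relative Camkk1 fell from 42 to 7 reads in all (log2 -2.91, adjusted p = 0.00405), and Camk2a from 17.1 ± 4.92 to 6.65 ± 0.932 CPM (log2 -1.36, adjusted p = 0.0069). Camk1 had 121 ± 26 and 159 ± 14.1 CPM (log2 0.39, adjusted p = 0.121). It was called against control replicate 3 alone (0.63, adjusted p = 0.00167) and after the length trend was removed (0.60, adjusted p = 0.000974), and was 0.19 against control replicate 1 alone.

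Factors that work with NFATc1 or limit its gene showed 1 of 13 higher and 3 lower (median -0.18). Fos, the AP-1 subunit that pairs with NFATc1, fell by 2.78 on the log2 scale (SE 0.171, edgeR adjusted p = 0.000472). Jdp2, an AP-1 relative that osteoclasts need in order to form, fell from 85.1 ± 13.7 to 24.6 ± 2.47 CPM (log2 -1.79, adjusted p = 0.000852). Jun rose by 0.54 (adjusted p = 0.0169), and Prdm1, which represses inhibitors of NFATc1, fell by 0.74 (adjusted p = 0.0258), both calls being lost without any verapamil library. Spi1 had 320 ± 38.9 and 262 ± 17.8 CPM (log2 -0.29, adjusted p = 0.121). Against control replicate 1 alone it was -0.41 and called (adjusted p = 0.00307), and against control replicate 3 alone -0.15.

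Genes described as direct targets of NFATc1 in osteoclasts were mostly lower, 8 of 13 against 2 higher (median -1.53), where 15.4% of all tested genes were lower and 9.99% higher, beside a Nfatc1 message that did not pass the test. The list was drawn up with these data known, and 8 of its 13 genes are also among the osteoclast markers. Slc9b2, a sodium and proton exchanger of osteoclasts, fell from 66 ± 8.9 to 16.7 ± 0.97 CPM (log2 -1.98, SE 0.127, edgeR adjusted p = 0.000543). The acid phosphatase Acp5, the gelatinase Mmp9 and the fusion protein gene Ocstamp fell by 1.85, 1.81 and 2.00. The 2 higher genes were Atp6v0d2, also an osteoclast marker here, and Clcn7. Atp6v0d2 rose from 522 ± 43.1 to 1028 ± 16.9 CPM (log2 0.98, edgeR adjusted p = 0.00159), and Clcn7 from 280 ± 47.8 to 403 ± 8.77 CPM (log2 0.52, edgeR adjusted p = 0.029). Tcirg1, a proton pump subunit, had 587 ± 86.4 and 605 ± 15.8 CPM (log2 0.04, adjusted p = 0.799), with estimates of 0.21 (called, adjusted p = 0.045) and -0.10 without control replicates 1 and 3 and -0.08 under upper quartile factors. Summed stromal and macrophage markers were lower in the same libraries.

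Genes described as Nfat5 targets went both ways, 2 of 9 higher and 3 lower (median -0.03), or 55.6% called against 25.4% of all tested genes. Aqp1, a water channel, fell from 12 ± 1.3 to 4.48 ± 0.832 CPM, Hspa1b, a heat shock protein with a near-identical neighbour, from 13.5 ± 1.74 to 5.56 ± 0.78 CPM, and Akr1b8, an aldo-keto reductase, from 145 ± 27.2 to 60.7 ± 4.39 CPM (edgeR adjusted p = 0.00375, 0.00375 and 0.00223). The amino acid transporter Slc38a2 rose by 0.58 (adjusted p = 0.0252), a call lost without any verapamil library. Slc6a6, the other gene called higher, rose from 842 ± 355 to 1564 ± 103 CPM (log2 0.89, edgeR adjusted p = 0.0474). Akr1b3, the aldose reductase, had 157 ± 33.2 and 114 ± 6.45 CPM (log2 -0.47, adjusted p = 0.0625). Akr1b3 was called lower by DESeq2, under upper quartile factors and once length was taken out (adjusted p = 0.0409, 0.0455 and 0.027). Against control replicate 1 alone it was -0.67 (adjusted p = 0.000155), and against control replicate 3 alone -0.23.

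**Figure D5:**
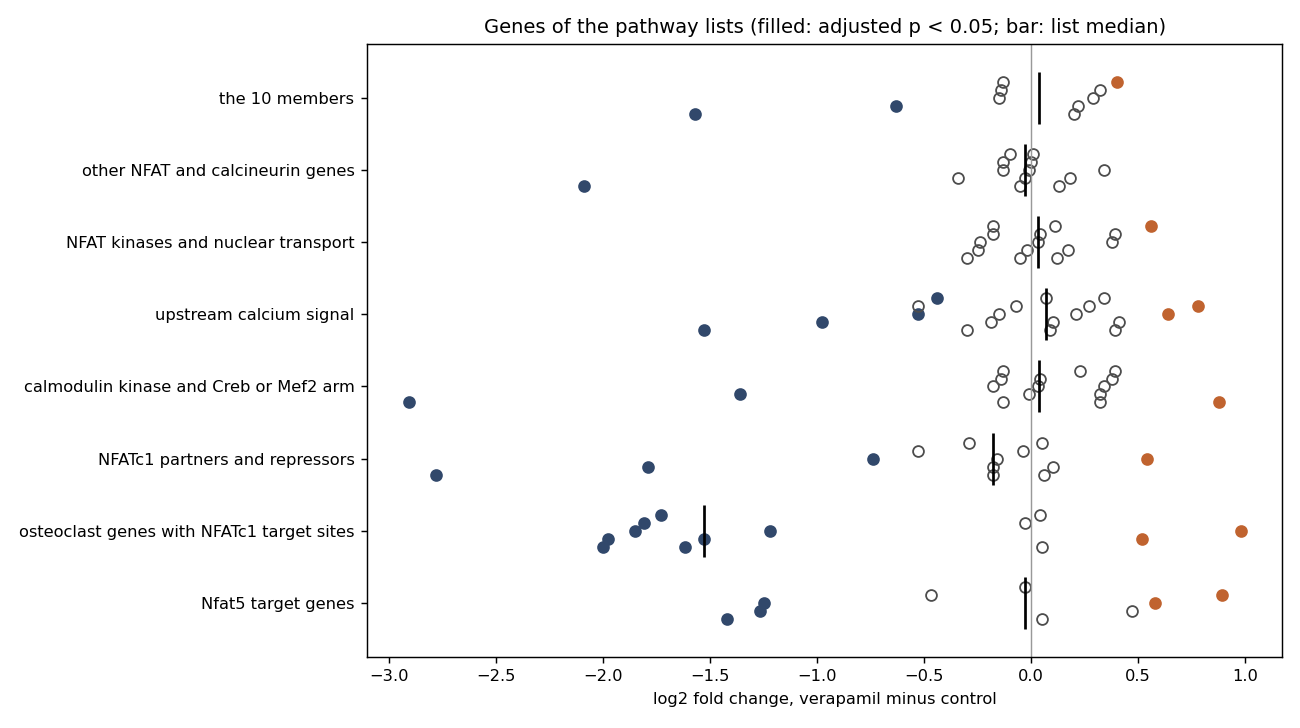
Log2 fold change with verapamil (horizontal axis) of each tested gene in the 10-gene set and the 7 pathway lists (vertical axis); filled symbols passed at an adjusted p under 0.05, blue for lower and orange for higher, and black bars are list medians. The medians lie between -0.18 and 0.07 except for the osteoclast targets of NFATc1, at -1.53.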

How the data were processed

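Gene-level read counts were used as deposited by the authors: estimated counts with decimals, which from their values were not normalized. Per the labels' protocols, a SMARTER mRNA kit made the libraries from 1.3 ug of total RNA. The submitters' processing notes name GRCm38 and mm10; the sources used here give no aligner, counter or annotation. Counts were rounded, scaled by TMM and tested with edgeR 4.0.16 in R 4.3.3 (quasi-likelihood, group as the only term, default filter with minimum count 10 and minimum total 15), with 3 residual and 3.28 prior degrees of freedom. P-values were adjusted by Benjamini-Hochberg over 12619 genes and called under 0.05. Exon lengths are from GENCODE M21 (protein-coding transcripts of the basic set, or all exons as an alternative), and start regions from RefSeq. Ratios of the controls had 0.1 CPM added. The fit was tested on simulated data with the same relative spread for all genes and no trend on exon length. It was thus not tested under a length trend like that between the controls.

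Members and lists were chosen with earlier results of these data known. From each list up to 4 called genes with the smallest p, and the uncalled one with the highest level per length, are named. Atp6v0d2, Clcn7 and Slc6a6, called higher, and Itpr3 and Tnfrsf11a, called lower, were added outside this rule. For these added genes only the fit to all 5 libraries is given. No label states whether replicates are separate cultures or animals, and p-values measure only the spread between these libraries, which may be technical. Alternatives were RLE or upper quartile factors, DESeq2 1.42.0, other filters on low counts, a replicate block, removal of the length trend (loess, span 0.5) and leaving out each library.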

Additional observations from a re-analysis of the deposited data

How the results depend on the processing

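Across 12 alternatives Rcan2 and Nfatc2 kept a negative and Ppp3cb a positive estimate. Nfatc3, Ppp3r1 and Dyrk1a, which did not pass the test, also kept a positive estimate. RLE factors, DESeq2 and both other filters on low counts changed no call among the 10 genes. Over the fits that left out 1 library, genes called ranged from 1460 to 7808 of all, genes called higher among the 10 from 0 to 5, those called lower from 1 to 3 and the pathway list genes called from 18 to 59. With a control left out, the spread between controls no longer enters the p-values. The number higher among the 10 was 0 with upper quartile factors, 0 with the replicate block and 2 with the length trend removed, where 45 pathway list genes were called against 29. Estimates that changed sign were those of Rcan1 (0.01 with the block, 0.06 and 0.14 without verapamil replicates 1 and 2), Nfat5 (-0.005 with the length trend removed, -0.20 without control replicate 1), Ppp3ca (0.10 without control replicate 1) and Nfatc1 (0.07 without control replicate 3). Estimates also moved with 1 library left out for Nfatc1 (-0.33 without control replicate 1), Nfat5, Nfatc3, Dyrk1a, Ppp3r1 and Ppp3ca (0.84, 0.55, 0.52, 0.23 and -0.32 without control replicate 3) and Rcan1 (-0.81 without verapamil replicate 3), all called there; the cause was not tested. The design text speaks of pairs, but 2 shared numbers are too few to check them: deviations of same-numbered libraries correlated at 0.289 (replicate 1) and 0.0224 (replicate 3). With 2 controls their deviations mirror each other, and control replicate 3 with verapamil replicate 2, which share no number, also gave 0.289. With the block Ppp3cb (0.41, adjusted p = 0.12) and Csnk1e (0.50, adjusted p = 0.0635) were not called. At 21 to 84 reads a library, Rcan2 was the member whose precision depth limited most. Shares were recomputed per all annotated exons, an alternative chosen after seeing the data: with verapamil the mean share of Nfatc3 went from 35.2% to 24.6%, that of Nfatc1 from 33.7% to 44.6% and that of Ppp3cb from 27.3% to 28.4%.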
